A study of Mus musculus with 3 samples.

Results

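The genes described here are 10 members of the Nrf2 oxidative stress pathway, taken by symbol from the 55536 annotated genes of the deposited tables. All 10 symbols were found. They were chosen by symbol and not by level, though earlier results of these data were known. They are the transcription factor gene Nfe2l2, its regulators Keap1, Sqstm1 and Bach1, and the target genes Gclc, Gclm, Nqo1, Txnrd1, Srxn1 and Prdx1.

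Nfe2l2 encodes Nrf2, the activator of the cell's response to oxidants and electrophiles. In unstressed cells Keap1 holds Nrf2 and hands it to a Cul3 ubiquitin ligase for degradation. Once oxidants or electrophiles modify Keap1, degradation slows and Nrf2 accumulates, pairs with a small Maf protein and binds antioxidant response elements near genes for glutathione synthesis, the thioredoxin cycle, quinone reduction and NADPH supply. Bach1 competes for the same elements as a repressor, and Sqstm1 (p62) binds Keap1 and draws it into autophagy. In macrophages the pathway is known for limiting oxidant damage and for restraining inflammatory genes after Toll-like receptor signalling.

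The samples formed 1 group of 3 libraries. Macrophages cultured from bone marrow of the mouse strain C57BL/6J had received Lipid A, a TLR4 ligand and the active core of bacterial endotoxin, at 100 ng/ml for 10 min. Ribosomal RNA was removed and total RNA bound to chromatin was sequenced, which enriches nascent and partly spliced transcripts. The labels give age and sex as not collected. Per the labels, replicates 1, 2 and 3 started from 1 µg, 250 ng and 500 ng of RNA, so amount and replicate cannot be told apart. All 3 are labelled as biological replicates but share a donor entry, so part of their spread may be technical. Unstimulated cells are not analysed here, and a level therefore does not show whether a gene was induced.

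The libraries held 14386725 to 16005795 estimated counts on genes. The limit for a gene without counts, set at 3 counts, was 0.187 to 0.209 CPM (counts normalised to library size) and covers counting error only. All 8 macrophage markers reached a TPM of at least 1 in every library, with mean TPM between 16.6 and 240. TPM is abundance normalised to transcript length and library total. None of 16 markers of T cells, B cells, neutrophils, erythroid cells, fibroblasts and mast cells did in the gene table, and their highest mean was 0.433 TPM. In a second transcript table, described below, their highest means were 1.52 ± 0.0848 TPM for Cpa3 and 1.16 ± 0.517 TPM for Col1a1 (SD, n = 3). Cd3e, Cd3g, Lck, Ly6g, Hba-a1, Hbb-bt and Mcpt4 were at 0 in all libraries of the gene table. In the second transcript table Cd3g, Cd3e and Lck had means of 0.902, 0.0709 and 0.0441 TPM. The 16 markers together had 16, 41 and 47 counts in replicates 1, 2 and 3, and the fibroblast markers had 0, 34 and 46 of these. In bulk RNA, fewer cells of a type and less RNA per cell cannot be told apart.

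Promoter sequences of 4 target genes are shown because antioxidant response elements are the sites through which Nrf2 acts on its targets. The windows begin 250 bases before the RefSeq start (build GRCm38.p6, the assembly also called mm10) and end at that start or where the annotated gene begins. Capitals mark matches to the element core TGACNNNGC or to the related bZIP motif TGANTCA, searched on both strands. The Nqo1 window is shown as a target promoter window with no match. Bases outside the 250 before each start were not searched, so elements there would be missed.
Prdx1, chr4:116685349-116685543, plus strand: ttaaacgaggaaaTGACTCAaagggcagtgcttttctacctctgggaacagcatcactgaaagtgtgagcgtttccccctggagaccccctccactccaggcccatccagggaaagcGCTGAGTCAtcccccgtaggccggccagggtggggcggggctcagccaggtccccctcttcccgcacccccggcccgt
Srxn1, chr2:152105274-152105515, plus strand: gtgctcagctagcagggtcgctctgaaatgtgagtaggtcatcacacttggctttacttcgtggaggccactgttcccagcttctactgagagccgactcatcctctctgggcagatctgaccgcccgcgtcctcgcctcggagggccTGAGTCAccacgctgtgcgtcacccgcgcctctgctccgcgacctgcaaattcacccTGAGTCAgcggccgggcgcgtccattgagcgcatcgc
Gclm, chr3:122245307-122245556, plus strand: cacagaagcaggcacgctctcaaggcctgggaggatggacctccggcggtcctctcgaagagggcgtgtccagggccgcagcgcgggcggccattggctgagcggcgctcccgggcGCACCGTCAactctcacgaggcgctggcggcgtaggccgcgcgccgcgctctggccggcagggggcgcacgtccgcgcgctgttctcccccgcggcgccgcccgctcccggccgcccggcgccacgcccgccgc
Nqo1, chr8:107403207-107403455, minus strand: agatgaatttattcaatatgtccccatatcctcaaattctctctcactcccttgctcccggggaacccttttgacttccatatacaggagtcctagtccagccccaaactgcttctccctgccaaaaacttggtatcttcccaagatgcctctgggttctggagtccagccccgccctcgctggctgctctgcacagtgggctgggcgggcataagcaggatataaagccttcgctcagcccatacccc

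The RefSeq table held promoters of 9 of the 10 genes, in 11 windows since Txnrd1 had 3 starts, and Gclc had none there. The core TGACNNNGC was present in 4 of the 11 windows, those of Nfe2l2, Gclm, Prdx1 and the second Txnrd1 start, against 10.2% of all 32851 windows of 250 bases. The match in Nfe2l2 itself, TGACTCCGC, lay at -240 to -232 from the start. The Gclm match lay at -134 to -126 and the Prdx1 match at -133 to -125. TGANTCA was present in 2 windows, with a pair of matches each in Srxn1 and Prdx1, against 6.75% of all windows. The second Prdx1 copy, at -131 to -125, overlaps its TGACNNNGC match. Either motif was present in 5 of the 11 windows and in 16.1% of all windows. These matches describe letters and not binding.

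Exon and intron boundaries from 4 genes are shown because much of the signal of these genes was assigned to transcripts that keep intron sequence (described further on). Each is 60 bases long and is read from a GENCODE M21 transcript annotated as retained intron. Capitals are the last 30 bases of a coding exon and lower case the first 30 bases of the intron that the transcript reads into.
Prdx1-206, intron 2, chr4:116687494-116687553, plus strand: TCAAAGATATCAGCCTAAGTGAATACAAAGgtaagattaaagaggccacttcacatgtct
Txnrd1-207, intron 5, chr10:82879319-82879378, plus strand: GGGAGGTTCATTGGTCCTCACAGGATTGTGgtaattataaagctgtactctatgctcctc
Txnrd1-207, intron 7, chr10:82881919-82881978, plus strand: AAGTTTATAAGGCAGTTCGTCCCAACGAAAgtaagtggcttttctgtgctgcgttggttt
Sqstm1-207, intron 5, chr11:50205993-50206052, minus strand: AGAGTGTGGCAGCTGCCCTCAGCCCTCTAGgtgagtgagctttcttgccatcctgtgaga
Bach1-203, intron 4, chr16:87722579-87722638, plus strand: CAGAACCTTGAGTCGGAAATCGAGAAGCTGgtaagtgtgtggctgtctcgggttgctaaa

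The first question was how much RNA of each gene was on chromatin at this time. Detection, a TPM of at least 1 in all 3 libraries, was reached by 9 of the 10 genes, against 24.4% of all annotated genes and 45.9% of protein-coding genes. Nqo1 was the gene that was not detected. Mean TPM was at least 10 for 6 genes, against 11.7% of all annotated and 25.5% of protein-coding genes, and at least 50 for 3 genes, against 2.57% and 5.66%. The median of log2(TPM + 1) over the 10 genes was 4.45 ± 0.17 (SD, n = 3 libraries), against 3.65 ± 0.25 for the 10120 detected protein-coding genes. The difference was 0.70, 0.83 and 0.85 in replicates 1, 2 and 3. The 10 genes include 1 that was not detected, while the protein-coding set holds detected genes alone.

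Among the regulators, Nfe2l2 RNA (ENSMUSG00000015839.6, chr2:75675513-75704641, minus strand, mm10) was abundant. It had 101.97, 70.27 and 57.56 TPM in replicates 1, 2 and 3, from 2380, 1929 and 1628 counts. Its mean of 76.6 ± 22.9 TPM (SD, n = 3) placed it at percentile 93.7 of detected protein-coding genes. Replicate 1 was the highest library and replicate 3 the lowest.

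Keap1 (ENSMUSG00000003308.15, chr9:21229730-21239361, minus strand), the sensor that binds Nrf2, had 13.64, 15.70 and 13.50 TPM. Its mean was 14.3 ± 1.23 TPM (SD, n = 3), and the libraries lay close together. The level of Nfe2l2 RNA was above that of Keap1 RNA in each library.

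Sqstm1 (ENSMUSG00000015837.15, chr11:50199366-50210827, minus strand) had the highest mean of the 10 genes. It had 123.38, 97.94 and 80.56 TPM, a mean of 101 ± 21.5 (SD, n = 3). Bach1 (ENSMUSG00000025612.5, chr16:87698945-87733346, plus strand), the repressor, had 39.34, 28.53 and 24.31 TPM, a mean of 30.7 ± 7.75 (SD, n = 3). Both were highest in replicate 1 and lowest in replicate 3 on the TPM scale.

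The mean levels of the target genes lay between those of Prdx1 and Nqo1. Prdx1 (ENSMUSG00000028691.12, chr4:116685544-116700822, plus strand), a peroxiredoxin that reduces hydrogen peroxide, had 97.22, 102.33 and 71.48 TPM, a mean of 90.3 ± 16.5 (SD, n = 3). In the second transcript table, made from the reads without the alignments, Prdx1 averaged 144 ± 14.1 TPM (SD, n = 3). Txnrd1 (ENSMUSG00000020250.10, chr10:82833951-82897712, plus strand), the cytosolic thioredoxin reductase, had 42.58, 32.77 and 24.55 TPM, a mean of 33.3 ± 9.03 (SD, n = 3). Srxn1 (ENSMUSG00000032802.8, chr2:152105516-152111376, plus strand), which restores overoxidised peroxiredoxins, had 8.84, 10.67 and 6.20 TPM, a mean of 8.57 ± 2.25 (SD, n = 3). Of these genes of the thioredoxin cycle, Prdx1 was at percentile 95.2 of detected protein-coding genes, Txnrd1 at 79.9 and Srxn1 at 39.7.

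The subunits of glutamate-cysteine ligase, the rate-limiting enzyme of glutathione synthesis, were low. The catalytic subunit gene Gclc (ENSMUSG00000032350.9, chr9:77754535-77794485, plus strand) had 6.72, 4.07 and 3.10 TPM, a mean of 4.63 ± 1.87 (SD, n = 3). The modifier subunit gene Gclm (ENSMUSG00000028124.15, chr3:122245557-122270732, plus strand) had 4.58, 3.70 and 2.23 TPM, a mean of 3.50 ± 1.19 (SD, n = 3). They lay at percentiles 22.8 and 16.1 of detected protein-coding genes. In the second transcript table the means were 8.56 ± 1.83 TPM for Gclc and 10.3 ± 2.93 TPM for Gclm (SD, n = 3).

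Nqo1 (ENSMUSG00000003849.8, chr8:107388225-107403206, minus strand), the quinone reductase often used as a readout of Nrf2 activity, was close to the counting limit. It had 0.10, 0.09 and 0.18 TPM from 2, 2 and 4 counts. The 8 counts over the 3 libraries have an exact Poisson 95% interval of 3.45 to 15.8 counts, which is 0.0749 to 0.342 CPM for counting error only. Its mean in the second transcript table was 0.203 ± 0.114 TPM (SD, n = 3).

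**Figure D1:**
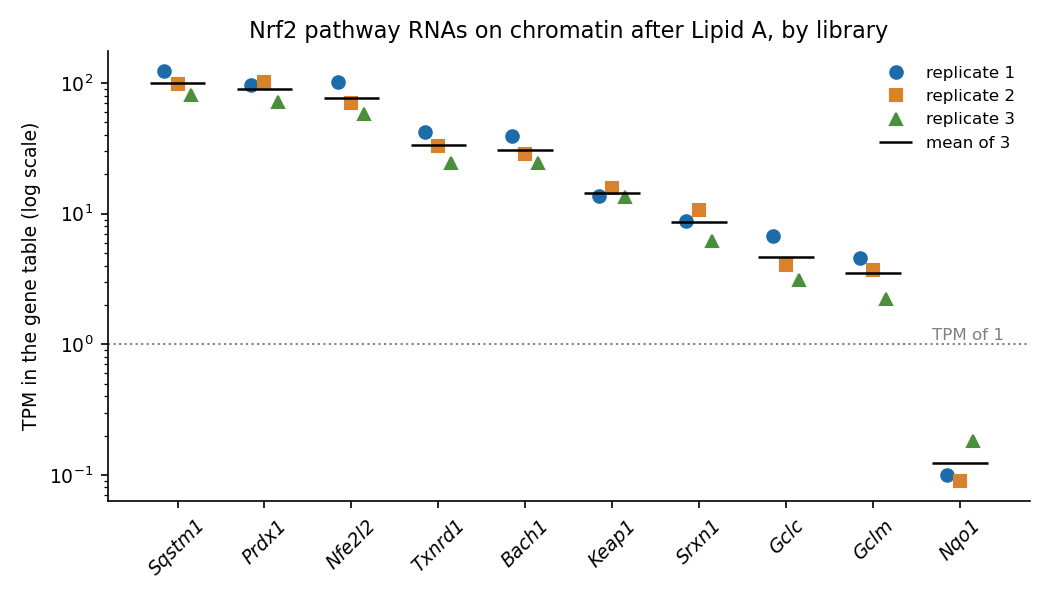
TPM of the 10 genes in the gene table (log scale), in order of mean TPM. Points are replicates 1, 2 and 3, black lines their mean, and the dotted line a TPM of 1. Sqstm1, Prdx1 and Nfe2l2 have means between 76.6 and 101 TPM with overlapping points, and Nqo1 alone lies under 1 TPM.

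In the order of mean TPM, the genes ran Sqstm1, Prdx1, Nfe2l2, Txnrd1, Bach1, Keap1, Srxn1, Gclc, Gclm and Nqo1. Of the 9 pairs of neighbours, 7 kept their order in every library. The order was taken from the means of these same libraries, so part of this agreement is built in. The top of the order did not hold: Prdx1 was above Sqstm1 in replicate 2, and Nfe2l2 was above Prdx1 in replicate 1. The mean differences in log2(TPM + 1) were 0.15 ± 0.20 for Sqstm1 minus Prdx1 and 0.26 ± 0.31 for Prdx1 minus Nfe2l2 (SD, n = 3), less than the spread between libraries. Txnrd1 and Bach1 differed by 0.11 ± 0.09. The widest gaps were 1.97 ± 0.46 for Gclm minus Nqo1, 1.17 ± 0.08 for Nfe2l2 minus Txnrd1 and 1.03 ± 0.37 for Bach1 minus Keap1. With 3 libraries the two-sided exact sign-flip permutation test can go no lower than p = 0.25, so no pair could pass 0.05. That p was reached by the 7 pairs in constant order (Benjamini-Hochberg adjusted p = 0.321 over the 9 pairs).

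The next question was which annotated transcripts held the signal. In the first transcript table, the larger part of the TPM of Sqstm1, Prdx1 and Txnrd1 was in transcripts annotated as retained intron, and in Nfe2l2 the larger part was in a processed transcript, an RNA with no annotated coding frame. None of these transcripts is a full unspliced precursor. Shares of TPM weigh short transcripts more than shares of counts do, so both are given for the main genes.

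Nfe2l2 has 2 annotated transcripts. The processed transcript Nfe2l2-202 held 60.8%, 68.2% and 58.5% of the gene's TPM in replicates 1, 2 and 3, a mean of 62.5% ± 5.08 (SD, n = 3). Of its 1447 bases, 1321 lie outside the coding exons, in intron 1 (chr2:75679430-75704363, 24934 bases). It held 47.6% ± 5.39 of the gene's counts, and 61.9% ± 4.42 of its TPM in the second transcript table (SD, n = 3). The coding transcript Nfe2l2-201 averaged 28.8 ± 9.79 TPM (SD, n = 3).

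Sqstm1 had 64.3%, 72.0% and 68.0% of its TPM in 3 retained intron transcripts, a mean of 68.1% ± 3.86 (SD, n = 3). The highest of them, Sqstm1-207, reads 344 bases into intron 5, from the boundary shown above. The 3 transcripts together held 24.6% ± 1.79 of the counts of the gene. Bach1 had 48.0%, 47.3% and 39.9% of TPM in Bach1-203, which covers 312 bases of intron 4, and this was 22.7% ± 3.23 of its counts and 52.0% ± 2.55 of its TPM in the second transcript table (SD, n = 3).

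Prdx1 had 59.0%, 74.6% and 76.3% of its TPM in Prdx1-206, a mean of 70.0% ± 9.53 (SD, n = 3). This RNA of 553 bases has 374 bases in intron 2 (chr4:116687524-116691775). Its share was 36.5% ± 5.95 of counts and 45.4% ± 5.92 of TPM in the second transcript table, where coding transcripts held 54.6% ± 5.92. Txnrd1 had 66.1%, 65.2% and 60.7% of TPM in 3 retained intron transcripts and 47.3% ± 4.75 of counts. One of them, Txnrd1-207, includes introns 5 and 7 whole (401 and 1965 bases) and averaged 8.61 ± 1.61 TPM from a mean of 458 counts. Among the retained intron transcripts of these genes, it was the one that spans complete introns.

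For the other genes the shares depended on the table. Srxn1 had 99.1% ± 1.52 of TPM in its coding transcript in the first transcript table and 72.7% ± 7.48 in the second (SD, n = 3). Nqo1 has 1 annotated transcript. Keap1 had 38.2% ± 15.3 of TPM in the processed transcript Keap1-203, which is 317 bases long and held 2.17% ± 1.08 of counts, a mean of 9.67 counts. In the second transcript table Keap1-203 held 59.0% ± 9.80 of TPM. Gclm had 46.5%, 11.3% and 0% of TPM in a retained intron transcript with a mean of 3.56 counts, so this share rests on few reads. It was 32.1% ± 8.88 in the second transcript table. Gclc had 12.8% ± 15.2 of TPM and 1.75% ± 1.76 of counts in processed transcripts, which held 53.7% ± 5.22 of TPM in the second transcript table (SD, n = 3).

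Over the 5 genes with a retained intron transcript, the median share of TPM was 61.6% ± 3.19 (59.0%, 65.2% and 60.7%), against 46.6% ± 2.31 over 6523 genes with such a transcript and a TPM of at least 1 (SD, n = 3 libraries). By counts the median of the 5 genes was 25.0%. No value over all genes is given for counts or for the second transcript table. The difference from all genes is therefore shown for TPM of the first transcript table alone. Counting coding transcripts alone in the first transcript table, Sqstm1 averaged 32.4 ± 10.1, Nfe2l2 28.8 ± 9.79 and Prdx1 27.6 ± 11.5 TPM (SD, n = 3), within each other's spread. In the second transcript table Prdx1 stood apart at 79.1 ± 13.5 TPM. Sqstm1 at 37.1 ± 11.1 and Nfe2l2 at 27.7 ± 7.21 TPM overlapped there. Coding Bach1 averaged 16.5 ± 3.40 TPM and coding Txnrd1 11.8 ± 2.42 TPM in the first transcript table. The order was the other way round in the second, at 12.2 ± 1.13 TPM for Bach1 and 15.4 ± 2.14 TPM for Txnrd1 (SD, n = 3), so coding levels give no settled order of these genes.

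**Figure D2:**
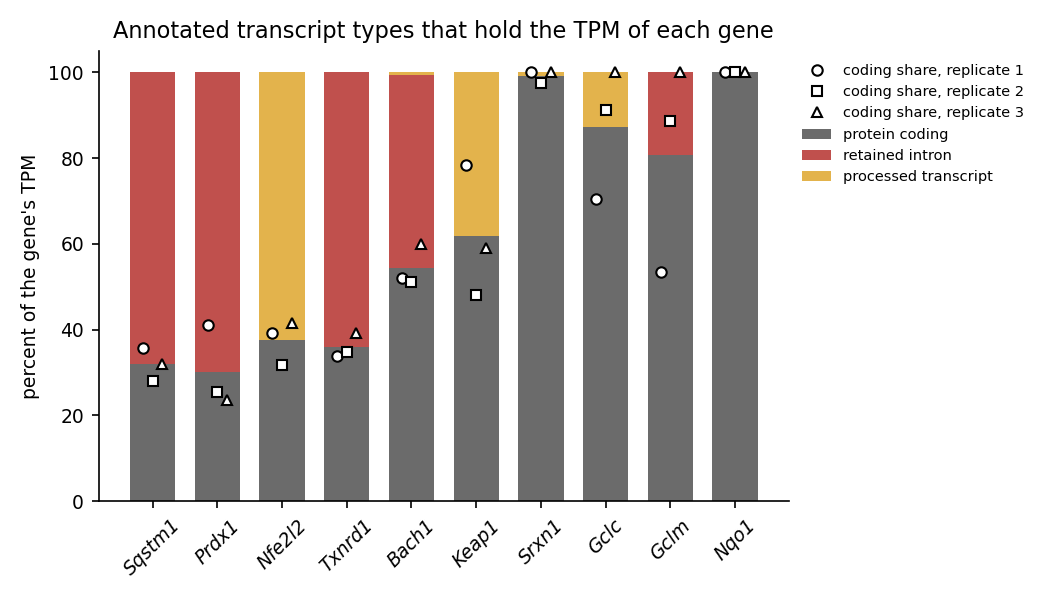
Share of each gene's TPM, from the first transcript table, in protein-coding, retained intron and processed transcripts, as stacked mean percentages over 3 libraries; open symbols give the coding share in each library. The coding share averages 37.5% for Nfe2l2 and 31.9% for Sqstm1, against 99.1% for Srxn1.

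Several of these genes share their locus with other annotated RNAs. The labels and readme files do not say whether counting used strand, so reads of a gene and of a partner on the other strand cannot be told apart. Keap1 overlaps the antisense RNA Gm16754 over 510 exon bases, and Gm16754 had 4.55 ± 0.781 TPM in the gene table and 27.0 ± 3.90 TPM in the second transcript table (SD, n = 3). Sqstm1 overlaps the end of Mrnip over 580 exon bases, and Mrnip had 1.27 ± 0.232 TPM in the gene table and 6.26 ± 1.23 TPM in the second transcript table. Gclm overlaps Gm17494 over 296 exon bases, and Gm17494 had 1.51 ± 0.336 TPM in the gene table and 7.11 ± 0.138 TPM in the second transcript table. Gclm also overlaps the pseudogene Gm6061 over 244 exon bases of the same strand. The values of Keap1, Sqstm1 and Gclm are uncertain to that extent.

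Inside Nfe2l2 lies Gm24996, an annotated small nuclear RNA on the same strand (chr2:75686740-75686838). It had 0 counts in each gene table and 385 ± 13.3 TPM in the second transcript table (SD, n = 3), where Nfe2l2 itself had 72.2 ± 12.5 TPM. Gm24996 is 99 bases long, and TPM gives short RNAs more weight than counts do. These levels therefore do not show which RNA was more abundant. Eid3 lies in Txnrd1 on the same strand, shares no exon bases with it, and had 15.5 ± 3.28 TPM.

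The libraries were then compared gene by gene, on CPM scaled with edgeR's TMM factors, since TPM moves with the share of short RNAs. RNAs over 200 bases held 72.3%, 51.0% and 47.7% of TPM in replicates 1, 2 and 3. On the TPM scale, replicate 3 was lowest for each of the 9 genes with a mean of at least 10 counts, and for 73.2% of all 15842 genes with such a mean and no count of 0. On scaled CPM it was lowest for 3 of the 9, Txnrd1, Srxn1 and Prdx1, against 27.7% of all genes.

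On scaled CPM, Nfe2l2, Sqstm1, Bach1 and Gclc were highest in replicate 1, 4 of the 9 genes against 36.8% of all genes. Srxn1, Prdx1, Gclm and Txnrd1 were highest in replicate 2, again 4 of the 9, against 32.7% of all genes. Keap1 was highest in replicate 3. The lowest library was replicate 2 for Nfe2l2, Keap1, Sqstm1, Bach1 and Gclc, 5 of the 9 against 36.0% of all genes. Nfe2l2 and its 3 regulators, and also the target Gclc, were thus lowest in replicate 2. Srxn1, Prdx1, Txnrd1 and Gclm were highest there, a grouping seen in the values and not tested. Some of these placements rest on small differences. For Gclc, replicate 3 over replicate 2 was 0.0066 on the log2 scale, so its lowest library is not settled. Txnrd1 had 72.3, 75.9 and 70.3 scaled CPM in replicates 1, 2 and 3. Other pathway genes of the same roles, described below, did not all share the grouping. Among the thioredoxin and peroxiredoxin genes, Prdx4 was highest in replicate 2, while Txnrd2, Prdx3, Prdx5 and Prdx6 were lowest there. Among the regulators, Cul3 was lowest in replicate 2, Btrc and Maff highest there, and Rbx1, Mafg, Mafk and Nfe2l1 lowest in replicate 1. Txn1, Prdx2 and Bach2 were lowest in replicate 3.

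The scaled CPM of Nfe2l2 was 153, 112 and 120 in replicates 1, 2 and 3, and replicate 1 over the mean of the others was 0.40 on the log2 scale (counting SE 0.04). For Srxn1 it was 21.1, 27.9 and 20.3, and replicate 2 over the others was 0.43 (counting SE 0.09). For Gclm it was 6.95, 9.65 and 7.83, and replicate 2 over the others was 0.38 (counting SE 0.15). The same ratio was 0.15 for Prdx1 (counting SE 0.06) and 0.09 for Txnrd1 (counting SE 0.05). Gclc had a scaled CPM of 14.4, 12.5 and 12.6, and replicate 1 over the others was 0.20 (counting SE 0.12). Each of these sets 1 library against 2 others and has no replicate check.

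The median log2 ratio over the 9 genes was 0.10 for replicate 1 over the others, -0.11 for replicate 2 and -0.10 for replicate 3. Over all genes these medians were -0.00095, -0.023 and -0.00028. Against replicate 2 alone, the median for replicate 3 was 0.0066. The spread of scaled CPM over the 3 libraries, as a coefficient of variation, had a median of 12.0% over the 9 genes, between 3.86% for Txnrd1 and 18.0% for Srxn1, against 14.8% over all genes. Starting RNA and the fibroblast marker counts given above also differed between the libraries. The 8 macrophage markers together had 37471, 28732 and 24443 counts in replicates 1, 2 and 3, highest in replicate 1. Of the 39 other pathway genes described next, 21 were highest in replicate 1 on scaled CPM, against 36.8% of all genes. In replicate 2, 20 of the 39 were lowest, against 36.0% of all genes. The part of these values in the differences was not tested.

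**Figure D3:**
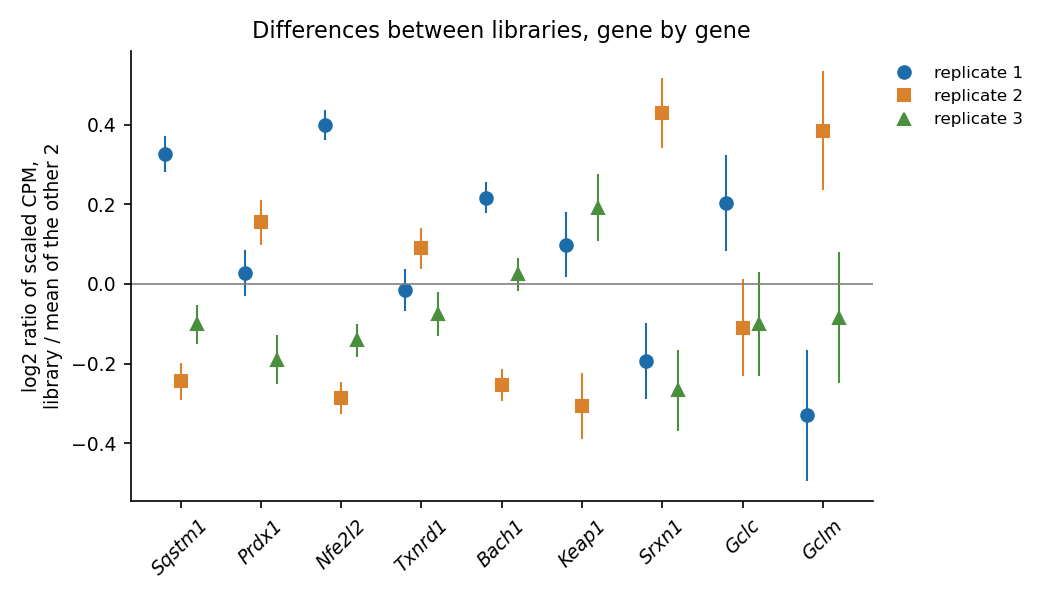
Log2 ratio of scaled CPM in each library over the mean of the other 2, for the 9 genes with a mean of at least 10 counts; bars are counting standard errors. Replicate 1 stands above 0 for Nfe2l2 (0.40) and Sqstm1 (0.33), and replicate 2 for Srxn1 (0.43) and Gclm (0.38).

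Other genes of the pathway were taken from a list of 39 grouped by role. Of these, 35 were detected and 23 had a mean of at least 10 TPM, against 45.9% and 25.5% of protein-coding genes. The level was above the median detected protein-coding gene for 6 of the 10 main genes and for 17 of these 39. That median splits the detected protein-coding genes evenly by definition, and both counts are close to an even split. The median of log2(TPM + 1) over the 39 was 3.55 ± 0.32 (SD, n = 3), and 3.65 ± 0.25 over detected protein-coding genes.

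The 3 highest genes of the list came from different roles. Pgd, an NADPH-producing enzyme of the pentose phosphate pathway, had 113.21, 87.04 and 92.06 TPM, a mean of 97.4 ± 13.9 (SD, n = 3). Mafg, a small Maf partner of Nrf2, averaged 56.1 ± 6.91 TPM, and Abcc1, an exporter of glutathione conjugates, averaged 51.6 ± 9.81 TPM.

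The 3 lowest were Me1, Bach2 and Slc7a11. Me1, the cytosolic malic enzyme that makes NADPH, had 0.11, 0.20 and 0.27 TPM from 5, 11 and 14 counts. Bach2, the paralogue of Bach1 known from lymphocytes, averaged 0.58 ± 0.214 TPM (SD, n = 3). Slc7a11, the cystine transporter that feeds glutathione synthesis, had 1.76, 0.79 and 0.89 TPM. In the second transcript table Slc7a11 averaged 4.01 ± 0.226, Bach2 1.25 ± 0.353 and Me1 0.325 ± 0.288 TPM (SD, n = 3). The fourth gene under the detection rule was the small Maf gene Maff, with 2.34, 2.23 and 0.69 TPM, which is named because it was not detected.

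By role, detection was complete for the thioredoxin and peroxiredoxin group (7 of 7), haem breakdown and export (4 of 4), superoxide and peroxide removal (3 of 3) and detoxification (3 of 3). It was 6 of 8 for regulators, 7 of 8 for glutathione genes and 5 of 6 for NADPH supply, beside the same 45.9% of protein-coding genes. The median of mean TPM was 33.4 in the haem and export group, 18.2 in NADPH supply and 16.2 among regulators. It was 11.0 in superoxide and peroxide removal, 7.47 among glutathione genes, 5.93 in the thioredoxin group and 4.94 in detoxification. Hmox1, the haem oxygenase and a classic Nrf2 and Bach1 target, was chosen for mention after its values were seen: it had 21.98, 22.45 and 10.10 TPM, lowest in replicate 3.

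**Figure D4:**
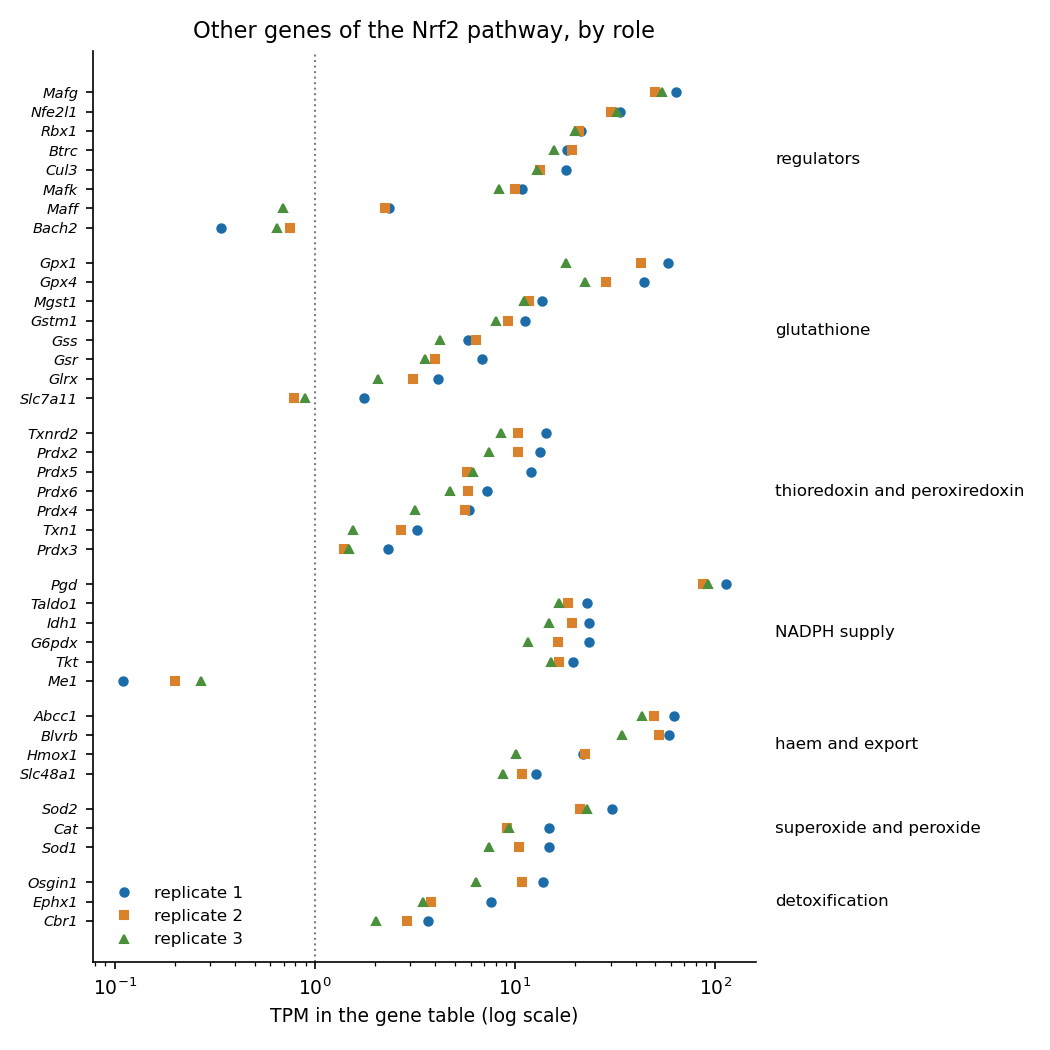
TPM (log scale) of the 39 other pathway genes in replicates 1, 2 and 3, grouped by role, with a dotted line at a TPM of 1. Pgd, at a mean of 97.4 TPM, is the highest and Me1, at 0.193 TPM, the lowest.

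The genes whose levels lay nearest to those of Nfe2l2 over the 3 libraries were Atp6v0c (distance 0.058), Taz (0.073) and Litaf (0.10), by Euclidean distance of log2(TPM + 1) among 22018 protein-coding genes. For Keap1 they were Rbm12 (0.047), Gosr1 (0.053) and Zfp942 (0.063). With 3 libraries of 1 condition this likeness describes similar levels.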

How the data were processed

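RNA of the chromatin fraction was measured in 3 libraries of 1 group. For each library the authors deposited a gene table and a transcript table with estimated counts and TPM, derived from transcriptome alignments to mm10 with GENCODE M21 per the deposited readme files, and a second transcript table with estimated counts and TPM made directly from reads with an M21 index. For programs, versions and use of strand: not given in the sources used here. Of 81881 rows, the 55536 that name an annotated gene were used, and the rest held 1.16%, 0.459% and 0.351% of the counts in replicates 1, 2 and 3.

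The 10 genes and all lists were chosen with earlier results of these data known. Named from the 39 pathway genes are the 3 highest and 3 lowest by mean TPM and any gene at 0 throughout (there was none). For likeness, the 3 nearest protein-coding genes of Nfe2l2 and Keap1 are named. Estimated counts were rounded to whole numbers, scaled with TMM factors (edgeR 4.0.16, R 4.3.3) and compared between libraries without a test, since a single group allows none. Alternatives were DESeq2 1.42.0 size factors, no scaling, other thresholds and pseudocounts, the second transcript table, TPM rescaled without RNAs of 200 bases or less, and leaving out each library. Counts of each pair of libraries differed beyond sampling noise (chi-square per degree of freedom 14.3 to 33.5), which shows only that no table is a copy of another and not that the libraries are independent. Levels use TPM with a pseudocount of 1 before logs. Figures and motif searches used Python 3.11.15.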

Additional observations from a re-analysis of the deposited data

How the results depend on the processing

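The number of the 10 genes detected was 9 under every alternative except a threshold of 5 TPM, where it was 7, and it was also 9 with a rule of at least 10 counts, chosen after seeing the data. The pathway count lay between 26 and 37. The 10 genes were put in order anew under each alternative, and 6 to 8 of the 9 neighbour pairs then kept that order in every library used. Each order came from the same libraries in which it was checked, so part of this agreement is built in. The order itself changed. On scaled CPM, which is not divided by length, it began Nfe2l2, Bach1, Sqstm1, Txnrd1 and Prdx1. In the second transcript table Prdx1 (144.3 TPM) was just above Sqstm1 (143.7 TPM), and Gclm (10.3 TPM) was above Srxn1 (9.48 TPM) and Gclc (8.56 TPM). Rescaling TPM without RNAs of 200 bases or less raised the median of log2(TPM + 1) of the 10 genes to 5.25, since the kept RNAs then make up the whole total, and raised each gene 1.71 to 1.87 times. The second transcript table moved 6 of 10 levels by more than 1 SD, all upward. The median log2 ratio of replicate 1 over the others was 0.26 in the second transcript table and 0.21 against replicate 2 alone. That of replicate 3 was -0.23 with no scaling, -0.19 in the second transcript table and, reversed, 0.0066 against replicate 2 alone. For these ratios the cause was not tested. The median retained intron share was 52.4% in the second transcript table and 64.9% at a minimum of 5 TPM, and 25.0% as a share of counts, which gives short transcripts less weight. Leaving out each library in turn gave 59.9% to 62.9% for this share and 4.37 to 4.54 for the median level. No paired analysis was possible because there is only 1 group. Depth limits Nqo1, with 2 to 4 counts a library, and the transcript shares of Gclm, Gclc and Keap1.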
